A study of Mus musculus with 6 samples.

Results

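The genes described here are 49 genes that load and fire origins of DNA replication and build the replication fork, out of 23359 gene symbols measured by RNA sequencing of mouse bone marrow. They were chosen by symbol, from the known roles of their products, with earlier results of these data known. The set holds 6 subunits of the origin recognition complex, 3 licensing factors, 8 MCM genes, 5 genes of the helicase cofactors Cdc45 and GINS, 2 of the origin kinase, 4 of DNA polymerase alpha-primase and 5 of polymerases delta and epsilon. It also holds 6 genes of the sliding clamp and its loader, 3 of the single-strand binding protein RPA, 2 of Okazaki fragment maturation, 3 of fork protection and 2 of the chromatin assembly factor CAF-1. For a symbol on several rows, only the row highest on average was used.

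The groups were 3 libraries of Gab2 +/+ bone marrow, labelled WT A, B and C, and 3 of Gab2 -/- bone marrow, labelled NULL A, B and C. GAB2 is a docking protein that relays signals from cytokine receptors. The sources used here do not give strain, age, treatment, any cell sorting or culture, the number of animals or the way the Gab2 allele was made. P-values therefore describe the spread among these 6 samples alone, and that spread may be technical.

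Replication starts in 2 steps. In G1 the origin recognition complex, with Cdc6 and Cdt1, loads the MCM ring on DNA as an inactive double ring, and geminin holds Cdt1 back once S phase has begun. The kinase Cdc7-Dbf4 and the recruitment of Cdc45 and GINS then turn MCM into the active helicase, behind which polymerases alpha, delta and epsilon copy the strands. Many of these genes are transcribed in late G1 and S phase under E2F factors, so their RNA is found mainly in dividing cells, which in bone marrow are chiefly precursors.

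Expression is given as FPKM, fragment numbers scaled to transcript length and to the mapped fragments of a library, so that levels can be compared between genes per length. Limma tested the 9916 of 23359 symbols that averaged 1 FPKM or more, and all 49 replication genes were among them. Gab2 measured 3.33, 3.10 and 2.43 FPKM in the WT libraries and 0.123, 0.145 and 0.203 FPKM in the NULL libraries, here and throughout in the order A, B, C. The NULL mean was 5.31% of the WT mean (limma adjusted p = 1.83e-05), so the labels and the targeted gene did not conflict. Absolute depth is not stated. Relative depth was estimated from the most common ratio to WT A among detected genes below 0.1 FPKM in both libraries. If such values stand for single fragments, the libraries lay between 0.332 times (WT B) and 1.26 times (NULL A) the depth of WT A.

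Markers of the cell types of bone marrow were far from evenly present. The 10 B-lineage markers used included Cd79a, Pax5 and Vpreb1. They summed to between 2913 and 3096 FPKM in WT and between 4058 and 4122 FPKM in NULL. Of them 8 were called higher in NULL, against 23.3% of tested genes, and 2, Pax5 and Cd24a, did not pass the test. Their log2 changes ran from -0.18 for Cd24a to 2.36 for Dntt, which varied in WT (34.5, 49.5 and 16.3 FPKM). The 7 granulocyte markers in the table summed to at most 0.130 FPKM in WT and 0.134 FPKM in NULL, with Elane, S100a8 and S100a9 at 0 in all 6 libraries. The 6 erythroid markers summed to between 0.0829 and 0.147 FPKM in WT and between 0.0849 and 0.147 FPKM in NULL, with Hba-a1 and Slc4a1 at 0 in every library. The defining transcripts of granulocytes and red cells, abundant in whole marrow, were thus at or near 0. The B-lineage list had by far the highest sum, so the results here do not describe whole marrow. Of the 5 stromal and endothelial markers only Pecam1 could be tested. The list summed to between 10.6 and 11.7 FPKM in WT and between 24.6 and 25.5 FPKM in NULL. Nearly all of each sum was Pecam1, with a WT mean of 11.1 FPKM and a NULL mean of 24.9 FPKM. Col1a1 was at 0 throughout, and the highest value of any marker besides Pecam1 was 0.182 FPKM (Lepr in WT A). The 6 monocyte and macrophage markers summed to between 0.329 and 0.654 FPKM in WT and between 2.62 and 3.74 FPKM in NULL, mostly Lyz2, with Cd14 at 0 throughout. The 4 mast cell and basophil markers were all at 0 in WT and summed to between 0.350 and 1.98 FPKM in NULL. The 4 megakaryocyte and platelet markers summed to between 0.0111 and 0.138 FPKM in WT and between 0.360 and 0.734 FPKM in NULL. The 6 T and NK markers summed to between 0.0955 and 0.255 FPKM in WT and between 0.297 and 0.406 FPKM in NULL, with Cd4 at 0 throughout. Granulocyte and erythroid sums overlapped between the groups and the other 6 lists did not, and the part of those lists in the results on replication genes was not tested.

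E2F factors bind short words in promoters of many S-phase genes, so promoters of the set were searched for TTTCCCGC, TTTGGCGC, TTTCGCGC and TTTGCCGC on both strands, with overlapping matches counted. The windows ran from 250 bases before to 50 bases after the gene start in RefSeq on GRCm38.p6, which held an entry for 40 of the 49 genes, and a gene with several starts was counted if any of its windows held a word. A word was found in 16 of the 40 (40.0%), against 5.28% of the 7408 tested genes with an entry and 2.60% of all 27025 genes in that table. Counting only matches before the start, the shares were 22.5%, 4.41% and 2.16%. The stretches shown were chosen because they carry such a word before the RefSeq start. They come from genes of the helicase, of licensing and of the priming polymerase. They are written 5′ to 3′ on the strand of the gene, with the matched words in capitals.
Mcm6, chr1:128359720-128359840, minus strand: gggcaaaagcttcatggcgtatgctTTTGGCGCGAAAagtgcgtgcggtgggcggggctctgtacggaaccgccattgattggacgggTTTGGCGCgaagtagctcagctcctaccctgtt
Mcm5, chr8:75109331-75109392, plus strand: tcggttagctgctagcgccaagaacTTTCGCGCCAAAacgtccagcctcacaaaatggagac
Mcm7, chr5:138172016-138172073, minus strand: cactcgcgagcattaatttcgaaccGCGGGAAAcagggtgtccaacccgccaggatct
Orc1, chr4:108579402-108579453, plus strand: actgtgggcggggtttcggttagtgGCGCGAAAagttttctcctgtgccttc
Orc3, chr4:34614951-34615008, minus strand: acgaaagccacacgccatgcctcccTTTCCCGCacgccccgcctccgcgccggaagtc
Cdc6, chr11:98907988-98908045, plus strand: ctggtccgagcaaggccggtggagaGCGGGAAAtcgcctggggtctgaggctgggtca
Pola1, chrX:93632261-93632318, minus strand: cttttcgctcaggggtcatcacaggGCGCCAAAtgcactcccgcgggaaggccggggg
In Mcm6 and Mcm5 overlapping words on opposite strands merge into a single longer capital run, and Mcm6 holds another copy nearer its start. By the GENCODE vM21 gene positions used elsewhere here, the words shown for Mcm7, Cdc6 and Orc1 lie inside the gene. The 16 genes with a word had a median log2 change of -0.90 in NULL (from -1.50 to 0.16) and the 24 without one -0.93 (from -1.39 to -0.25), and no test was made of the difference. A match describes the letters only, and a window without one says nothing of E2F binding.

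In the Gab2 -/- libraries, 48 of the 49 replication genes were lower than in the Gab2 +/+ libraries, and none was higher. Pold1, the catalytic subunit of polymerase delta, did not pass the test. NULL levels had a median of 51.4% of the WT level and ran from 33.2% for Pole2 to 113% for Pold1. Among all tested genes 42.0% were called lower and 23.3% higher, so the background of called genes was high. The median log2 change was -0.94 for the set and -0.13 for all tested genes. A log2 change of -1 or less was reached by 20 of the 49 genes, against 5.99% of tested genes. That count depended on the scaling of the libraries, with 10 genes (3.26% of tested genes) after median-of-ratios rescaling, 5 (2.89%) after quantile normalization, 5 (2.29%) with a common total and 2 (1.41%) with a common total without small RNA genes. In 48 of the 49 every NULL library lay below every WT library, which held for 45.1% of tested genes. In bulk RNA, fewer dividing cells and less RNA per cell cannot be told apart. Changes are on the log2(FPKM + 1) scale, with Benjamini-Hochberg adjustment over all tested genes and a threshold of 0.05.

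**Figure D1:**
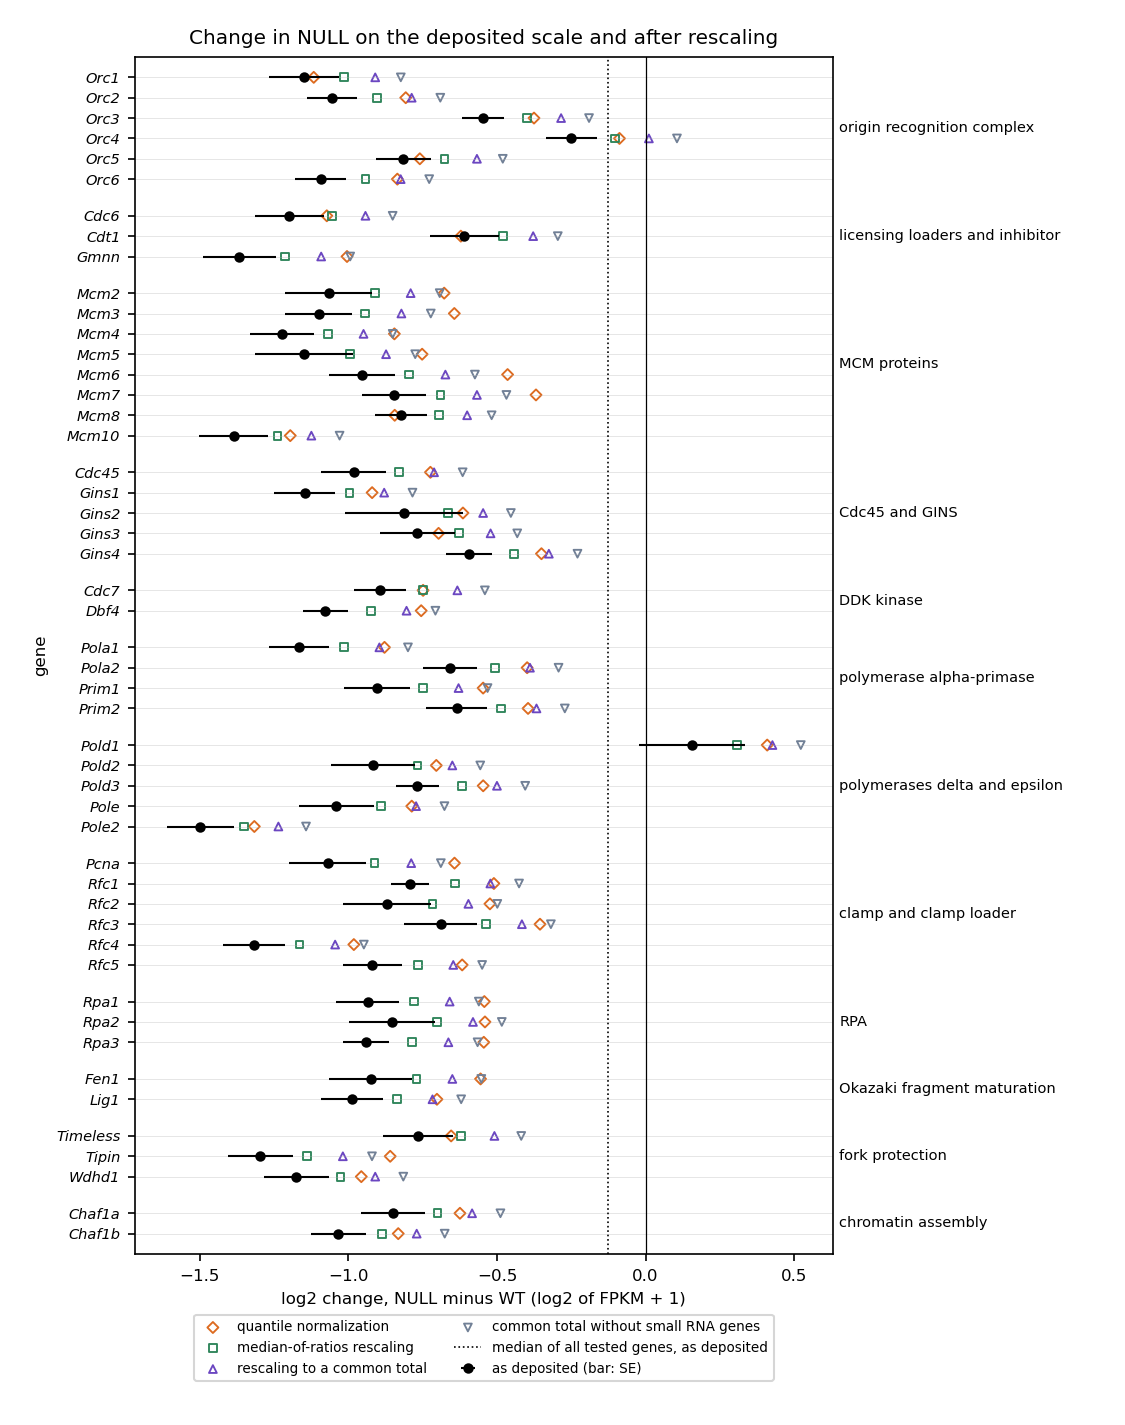
Log2 change of FPKM + 1 in NULL against WT for each of the 49 genes, grouped by role, with bars for the standard error of the limma fit and a line for the median of all tested genes at -0.13. Before any rescaling, every gene but Pold1 lies to the side of lower values in NULL, and Pole2 lies farthest out at -1.50. Orc4 crosses to higher values under both common totals (0.01 and 0.11).

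The origin recognition complex, a ring of subunits that marks origins, was lower in all 6 of its genes, but not by the same amount. Orc6, the most abundant, measured 36.5, 35.4 and 34.6 FPKM in WT and 16.6, 14.2 and 17.6 FPKM in NULL. Orc1, an ATPase subunit that rises and falls with the cell cycle, measured 10.4, 10.5 and 10.0 FPKM in WT and 4.71, 3.19 and 4.55 FPKM in NULL. Both genes were well apart between the groups, at 45.5% and 40.2% of WT. For Orc1 the log2 change was -1.15 (SE 0.119, limma adjusted p = 0.000117). Orc2 stood at 46.6%, Orc5 at 52.9% and Orc3 at 66.7% of the WT mean.

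Orc4, another ATPase subunit of the complex, had the smallest fall of the set. It measured 15.8, 15.2 and 13.5 FPKM in WT and 11.2, 12.5 and 13.3 FPKM in NULL, so the lowest WT and the highest NULL library nearly met. The NULL mean was 83.1% of WT, with a log2 change of -0.25 (SE 0.0867, limma adjusted p = 0.0350). The call was lost in 10 of 17 refits, among them those without WT A, WT B, NULL A or NULL B (limma adjusted p = 0.115, 0.102, 0.102 and 0.0682), and the sign turned in 2 of them. Of the set, 19 genes share exonic bases with another annotated gene, 13 of them with a protein-coding one, namely Cdc45, Chaf1a, Fen1, Gins2, Lig1, Mcm7, Orc2, Orc4, Orc6, Pole2, Rfc2, Rfc4 and Rfc5. Orc4 shares exonic bases with Acvr2a and Mbd5 on the opposite strand, 446 and 136 bases, and the sources used here do not say whether the authors counted by strand. Orc6 shares 171 exonic bases with Vps35 on the opposite strand, which ran from 60.7 to 68.0 FPKM in WT and from 41.0 to 47.8 FPKM in NULL.

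The licensing factors had a median NULL level of 40.8% of WT. Gmnn, which encodes geminin, the inhibitor of Cdt1, measured 68.7, 72.1 and 76.4 FPKM in WT and 32.0, 22.6 and 28.6 FPKM in NULL. This was 38.3% of the WT mean (log2 change -1.37, SE 0.122, limma adjusted p = 6.58e-05). Cdc6, which helps load MCM, fell to 40.8% of its WT mean, from 17.9 ± 0.445 to 7.29 ± 1.34 FPKM (SD, n = 3 each). Cdt1, the loader that geminin holds back, was scarcer than its inhibitor in every library. It measured 5.39, 6.37 and 7.09 FPKM in WT and 4.40, 3.32 and 3.59 FPKM in NULL, or 60.0% of WT (log2 change -0.61, SE 0.116, limma adjusted p = 0.00236). The level of Cdt1 divided by that of Gmnn was 0.0866 ± 0.00732 in WT and 0.137 ± 0.0110 in NULL (SD, n = 3 each), with no overlap between the groups. That ratio was chosen after its values were seen and was not tested.

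All 8 MCM genes were lower. Mcm2 to Mcm7 encode the ring of the replicative helicase and were among the most abundant of the set, from 72.0 FPKM for Mcm2 to 179 FPKM for Mcm6 on average in WT. Mcm6 measured 177, 179.5 and 179.6 FPKM in WT and 102, 77.0 and 98.3 FPKM in NULL, a fall to 51.8% of WT (log2 change -0.95, SE 0.111, limma adjusted p = 0.000197). The 6 ring genes stood between 42.3% (Mcm4) and 55.6% (Mcm7) of WT. Mcm10, which is not a ring subunit but helps to fire the helicase, fell furthest of the MCM genes. It measured 28.5, 28.3 and 27.3 FPKM in WT and 12.1, 8.34 and 10.2 FPKM in NULL, or 36.4% of WT (log2 change -1.39, SE 0.118, limma adjusted p = 5.55e-05). Mcm8, which acts mainly in recombination, was the least abundant gene of the set at 6.00 FPKM in WT and stood at 49.4%.

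Cdc45 and GINS complete the helicase, and all 5 of these genes were lower in NULL. Cdc45 measured 32.6, 35.5 and 37.2 FPKM in WT and 19.9, 14.8 and 17.5 FPKM in NULL, or 49.5% of WT. Gins1 had the largest fall of the GINS genes, from 30.1, 29.1 and 32.0 FPKM to 15.0, 11.2 and 13.5 FPKM, or 43.6% of WT (log2 change -1.15, SE 0.103, limma adjusted p = 6.64e-05). Gins2 varied most of these between libraries, from 20.2, 23.2 and 24.9 FPKM to 16.1, 8.66 and 13.8 FPKM, with a log2 change of -0.81 (SE 0.199, limma adjusted p = 0.00792). Gins2 shares 2758 exonic bases with Gse1 on the opposite strand, and Gse1 ran from 2.87 to 3.68 FPKM in WT and from 9.82 to 12.9 FPKM in NULL. Gins3 and Gins4 stood at 55.4% and 65.1% of WT. Rescaled to a common total, Gins2, Gins3 and Gins4 lost their calls (limma adjusted p = 0.0925, 0.0778 and 0.361). The kinase that activates the loaded helicase was lower in both subunits. Its regulatory subunit Dbf4 measured 50.7, 48.9 and 49.6 FPKM in WT and 23.2, 21.0 and 24.96 FPKM in NULL, or 46.4% of WT (log2 change -1.08, SE 0.0747, limma adjusted p = 2.94e-05). Its catalytic subunit Cdc7 stood at 51.4%.

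**Figure D2:**
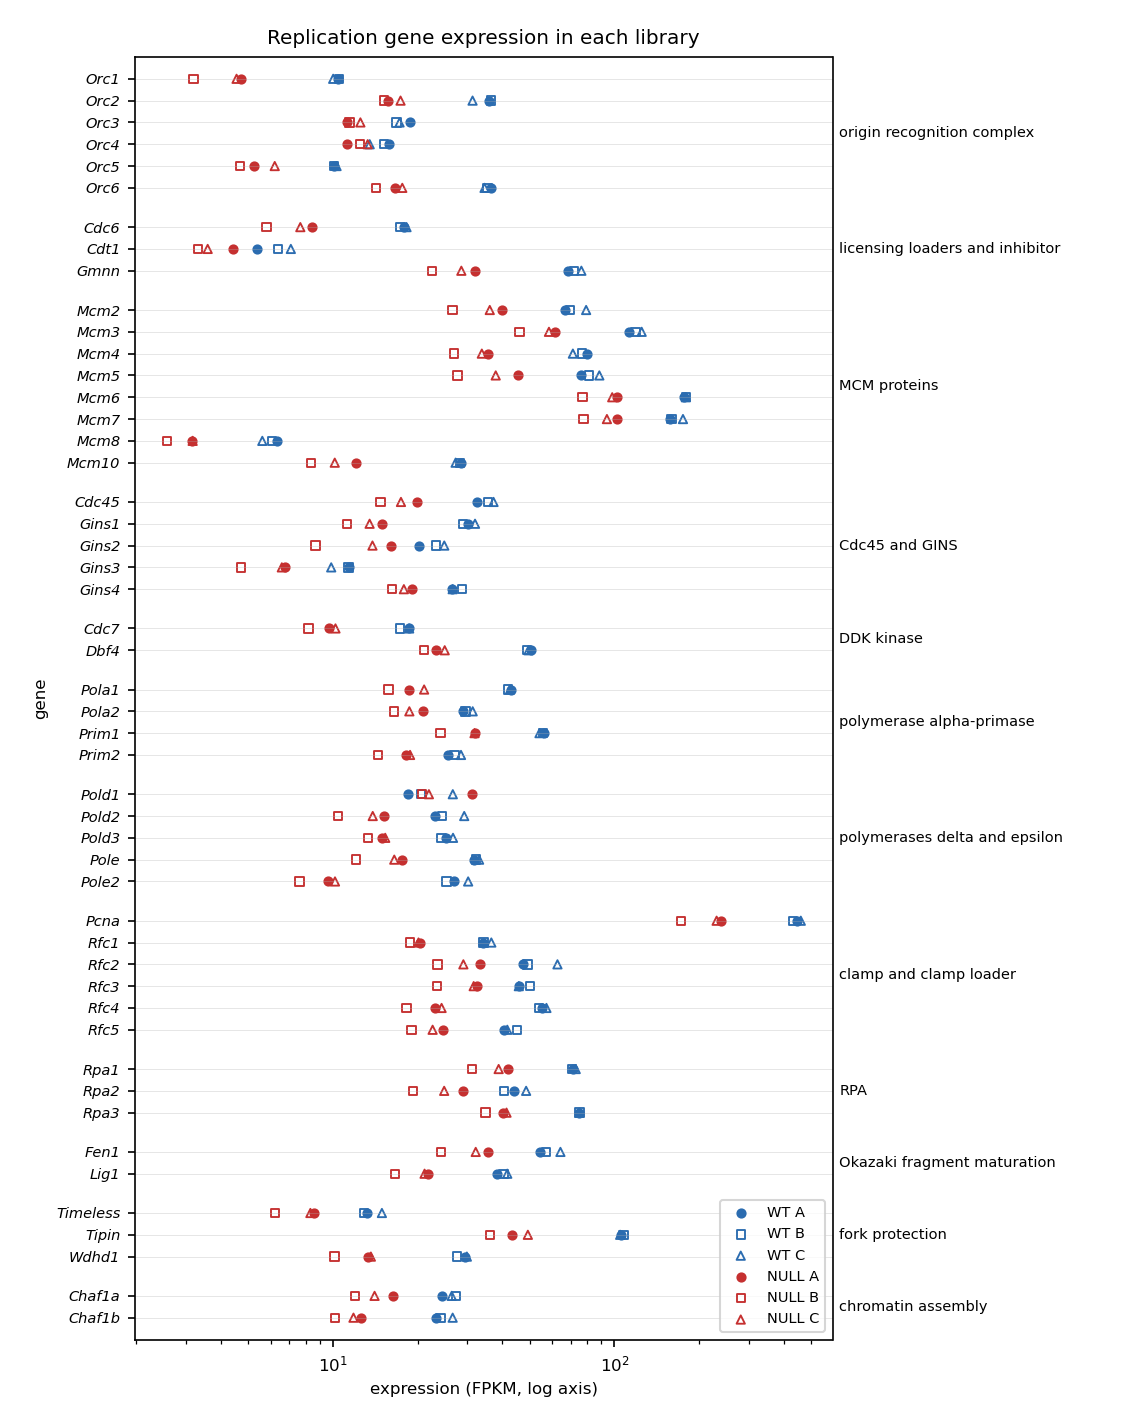
FPKM of each of the 49 genes in each of the 6 libraries on a log axis, with WT and NULL libraries in different colours and genes grouped by role. WT levels run from 6.00 FPKM (Mcm8) to 446 FPKM (Pcna), and Pold1 is the only gene whose groups overlap.

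Polymerase alpha-primase makes the RNA-DNA primers, and its 4 genes were all lower. The primase subunit Prim1 was the most abundant, with 56.0, 55.8 and 54.2 FPKM in WT and 32.1, 24.1 and 31.9 FPKM in NULL, or 53.0% of WT. The catalytic subunit Pola1 fell most, from 43.1, 42.0 and 42.6 FPKM to 18.7, 15.8 and 21.1 FPKM (43.5% of WT, log2 change -1.17, SE 0.1002, limma adjusted p = 5.79e-05). Pola2 and Prim2 stood at 62.4% and 63.4% of WT. Rescaled to a common total, only Pola1 of the 4 was still called lower (limma adjusted p = 0.267 for Pola2, 0.0613 for Prim1 and 0.295 for Prim2).

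Polymerases epsilon and delta extend the leading and the lagging strand. Pole2, the second subunit of polymerase epsilon, had the largest fall of all 49 genes. Its gene spans 69201773 to 69228195 of chromosome 12 (GRCm38, minus strand). It measured 27.0, 25.3 and 30.2 FPKM in WT and 9.61, 7.60 and 10.2 FPKM in NULL, or 33.2% of WT (log2 change -1.50, SE 0.113, limma adjusted p = 3.76e-05). Pole, the catalytic subunit of the same enzyme, measured 31.7, 32.3 and 33.1 FPKM in WT and 17.6, 12.1 and 16.5 FPKM in NULL, or 47.6% of WT. Pole2 shares 245 exonic bases with Gm49384 on the same strand, for which no value is given.

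Pold1 was the exception in the set. Its gene spans 44532746 to 44548849 of chromosome 7 (GRCm38, minus strand) and encodes the catalytic subunit of polymerase delta. It measured 18.5, 20.5 and 26.7 FPKM in WT and 31.3, 20.7 and 21.9 FPKM in NULL, so the groups overlapped, with NULL A the highest and WT A the lowest library. The log2 change was 0.16 (SE 0.178, limma adjusted p = 0.466), and without NULL A it was -0.0214 (limma adjusted p = 0.907). The other subunits of polymerase delta in the set both fell, Pold2 to 51.4% and Pold3 to 57.2% of WT. The gene Spib lies 674 bases downstream of Pold1 on the same strand and measured 26.6, 32.7 and 30.9 FPKM in WT and 101, 106 and 92.2 FPKM in NULL. Whether fragments of Spib enter the value of Pold1 was not tested.

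PCNA, the clamp that tethers the polymerases, and the RFC complex that loads it were lower in all 6 genes. Pcna was the most abundant gene of the set, with 446, 433 and 460.0 FPKM in WT and 239, 172 and 231 FPKM in NULL, or 48.0% of WT. Within RFC, Rfc4 stood apart with 55.5, 54.1 and 57.4 FPKM in WT and 23.0, 18.3 and 24.3 FPKM in NULL, or 39.3% of WT (log2 change -1.32, SE 0.105, limma adjusted p = 4.51e-05). The other RFC genes kept between 52.0% (Rfc5) and 61.8% (Rfc3). Rfc4 shares 194 exonic bases with Eif4a2 on the opposite strand, which ran from 108 to 118 FPKM in WT and from 67.5 to 75.5 FPKM in NULL. RPA coats single-stranded DNA, and its 3 subunits moved nearly in step, at 52.0% for Rpa1, 54.9% for Rpa2 and 51.6% for Rpa3. Rpa3 measured 74.97, 75.2 and 75.1 FPKM in WT, with an SD of 0.127 FPKM, and 40.1, 34.8 and 41.4 FPKM in NULL (log2 change -0.94, SE 0.0779, limma adjusted p = 5.24e-05).

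Fen1, the flap endonuclease of Okazaki fragments, measured 54.4, 57.2 and 64.3 FPKM in WT and 35.6, 24.3 and 32.2 FPKM in NULL. Lig1, the ligase that seals them, measured 38.4, 40.4 and 41.7 FPKM in WT and 21.7, 16.6 and 21.2 FPKM in NULL. Both genes fell by similar amounts, to 52.4% and 49.5% of WT. Tipin, a partner of Timeless in the complex that steadies stalled forks, measured 106, 108 and 105 FPKM in WT and 43.4, 36.1 and 49.3 FPKM in NULL, or 40.5% of WT (log2 change -1.30, SE 0.109, limma adjusted p = 5.48e-05). Timeless stood at 56.2% and Wdhd1, which links the helicase to polymerase alpha, at 42.6%. The CAF-1 subunits, which place histones on new DNA, also fell. Chaf1a went from 24.4, 27.4 and 26.4 FPKM to 16.3, 11.99 and 14.1 FPKM, and Chaf1b from 23.2, 24.1 and 26.6 FPKM to 12.6, 10.2 and 11.8 FPKM. Chaf1a has the longest exonic overlap of the set, 4648 bases with Ubxn6 on the opposite strand, which ran from 7.45 to 9.53 FPKM in WT and from 11.5 to 11.9 FPKM in NULL.

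The 3 NULL libraries did not sit at the same level. NULL B was the lowest NULL library for 47 of the 49 genes, where it was the lowest for 47.5% of all tested genes, and the exceptions were Orc3 and Orc4. Measured from the WT mean, the median log2 difference over the set was -0.80 in NULL A, -1.19 in NULL B and -0.86 in NULL C, while over all tested genes it was -0.12, -0.16 and -0.12. The FPKM of the 49 genes summed to 2544, 2565 and 2682 in WT and to 1436, 1082 and 1371 in NULL. The coefficient of variation was larger in NULL than in WT for 48 of the 49 genes, against 49.95% of tested genes, with medians of 14.8% and 5.197%. Between NULL A and NULL C alone its median was 5.38%. By the estimate from low values, NULL B had 0.426 times the depth of WT A, while WT B and WT C had 0.332 and 0.415 times that depth. The part of depth in the values of NULL B was not tested. Without NULL B the set's median log2 change was -0.82 and 47 genes were called lower, against 37.9% of tested genes.

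**Figure D3:**
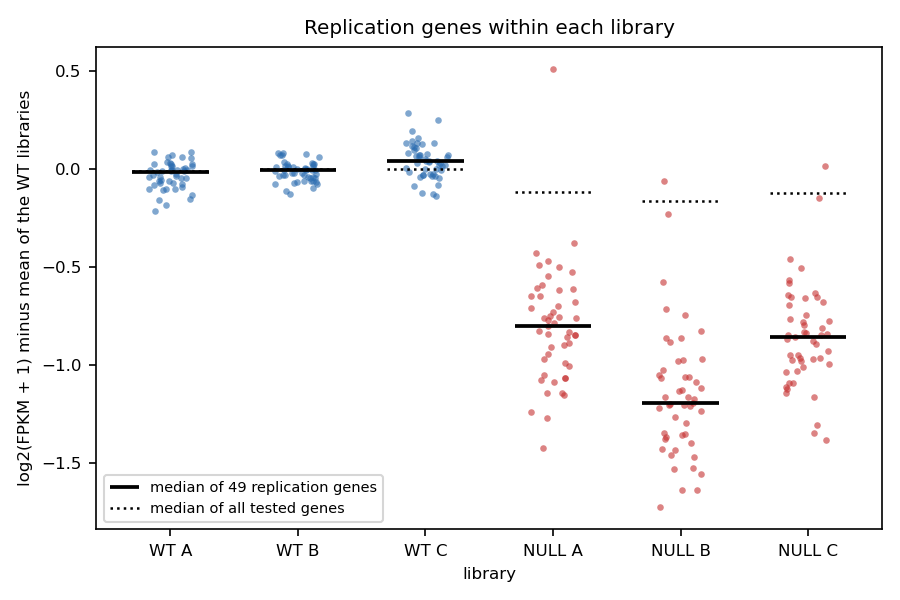
Difference of each library from the WT mean in log2(FPKM + 1), 1 point per replication gene, with the median of the set and of all tested genes in each library. The WT libraries have medians between -0.01 and 0.04, and NULL B lies lowest at -1.19.

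Subunits of a complex can be compared within a library, where any scaling of the whole library cancels. Each gene was expressed as its share of the summed FPKM of its complex, which gave 35 shares over 11 complexes. With 3 libraries against 3 an exact two-sided permutation test cannot go below p = 0.1, and the smallest value after adjustment over the 35 shares was 0.152, so no share passed the threshold. Of the 35 shares, 23 did not overlap between the groups, so a lack of overlap was common among them. Shares in a complex sum to a fixed total and are not independent of each other. The share of Pold1 among the 3 polymerase delta genes was 27.7%, 29.7% and 32.3% in WT and 51.0%, 46.6% and 42.9% in NULL. Although its level overlapped between the groups, its share did not, with means of 29.9% ± 2.29 and 46.8% ± 4.04 (SD, n = 3 each).

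The share of Orc4 in the origin recognition complex was 12.4%, 12.2% and 11.6% in WT and 17.3%, 20.4% and 18.6% in NULL. Orc3 also took a larger share, 14.3% in WT and 17.9% in NULL on average, while Orc1, Orc2 and Orc6 took smaller ones. In RFC the share of Rfc4 was 23.8% ± 0.848 in WT and 17.99% ± 0.949 in NULL (SD, n = 3 each). In GINS, Gins1 went from 33.3% to 26.6% and Gins4 from 29.9% to 35.95%, while in polymerase alpha-primase Pola1 went from 27.5% to 22.1%. Pole2 held 45.9% of its pair with Pole in WT and 37.4% in NULL. In the MCM ring the differences were small, the widest being Mcm7 with 23.7% ± 0.582 and 26.7% ± 0.727 (SD, n = 3 each). Of the 11 complexes, RPA had the smallest difference in its most divergent subunit, with shares in WT and NULL of 37.5% and 37.1% for Rpa1, 23.2% and 24.1% for Rpa2 and 39.3% and 38.8% for Rpa3.

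**Figure D4:**
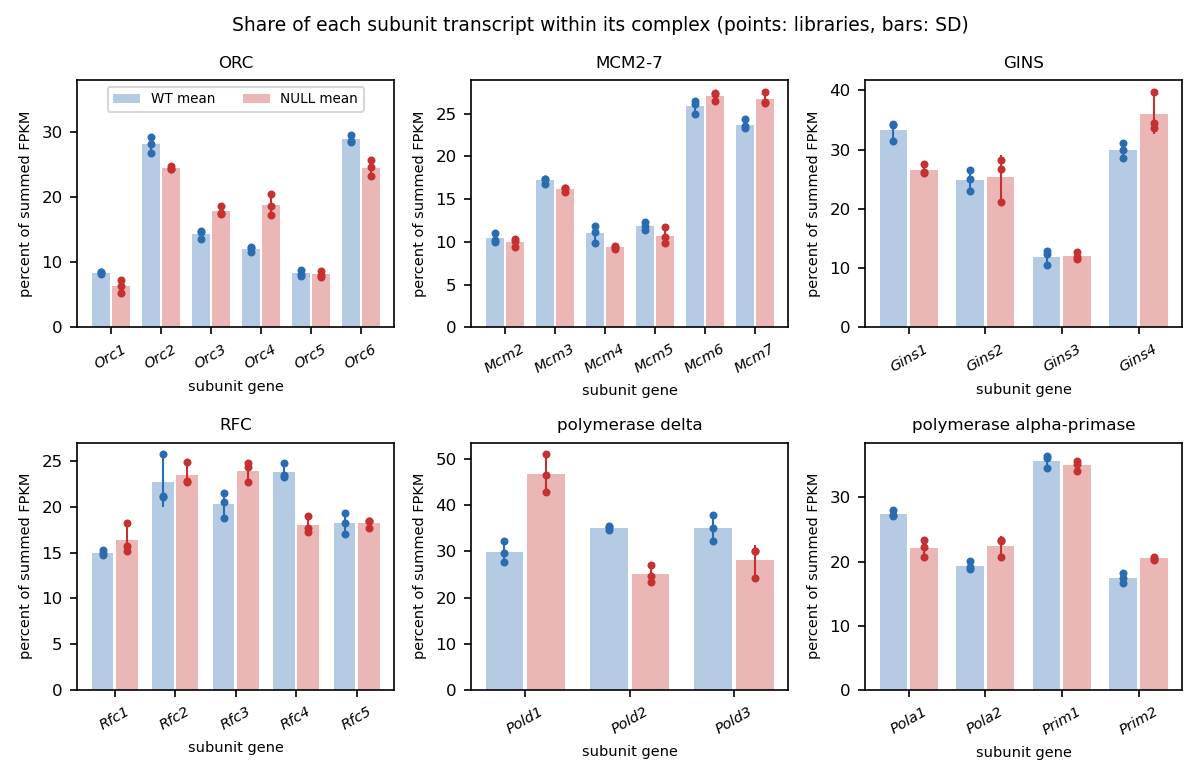
Share of each subunit in the summed FPKM of its complex, in percent, for the 3 WT and 3 NULL libraries. The complexes drawn are the origin recognition complex, the MCM ring, GINS, RFC, polymerase delta and polymerase alpha-primase, and the others are not shown. Pold1 and Orc4 take a larger share in every NULL library than in any WT library. The same holds for Orc3, Mcm6, Mcm7, Gins4, Rfc3, Pola2 and Prim2.

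FPKM carry a scaling by library, and rescaled values gave smaller falls. After quantile normalization 47 genes were called lower (median log2 change -0.68, with 33.1% of tested genes lower), and after median-of-ratios rescaling also 47 (median -0.78, with 32.7% lower). Rescaled to a common total of FPKM, 29 were called lower (median -0.66), where 10.1% of tested genes were. Single short transcripts held up to 22.5% of the total FPKM (Snord49b in WT C), so that total rests in part on small RNA genes. With the 792 small RNA symbols left out of the total, 46 were called lower (median -0.56, with 20.6% of tested genes lower and 45.1% higher) and Pold1 was called higher (log2 change 0.52, limma adjusted p = 0.0101). Under these scalings the median of all tested genes was -0.03, 0.01, 0.11 and 0.20, against -0.13 as deposited. Orc4 turned to higher values under both common totals (log2 change 0.01 and 0.11, limma adjusted p = 0.977 and 0.463), and no other gene of the set changed sign between scalings. The 19 calls lost under the common total of all genes were those of Orc3, Orc4, Cdt1, Mcm7, Gins2, Gins3, Gins4, Pola2, Prim1, Prim2, Pold3, Rfc1, Rfc2, Rfc3, Rfc5, Rpa2, Fen1, Timeless and Chaf1a.

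Other lists of replication genes moved the same way on the deposited scale. Of 34 further replication factors 28 were lower, 1 was higher and 5 did not pass the test, with a median log2 change of -0.73. These counts and those of the next 3 lists stand beside 42.0% lower and 23.3% higher among all tested genes. The largest fall was that of Nasp, a histone chaperone, from 99.8 ± 0.944 to 39.1 ± 5.45 FPKM (SD, n = 3 each; log2 change -1.34, limma adjusted p = 3.98e-05). The 1 that rose was Pold4, the smallest subunit of polymerase delta, from 24.8 ± 5.53 to 34.0 ± 3.51 FPKM (SD, n = 3 each; log2 change 0.45, limma adjusted p = 0.0303). For Pold4 the groups nearly met, at 30.8 FPKM in WT C and 31.0 FPKM in NULL C. With Pold1 and Pold4, polymerase delta thus held subunits that fell, 1 that rose and 1 that did not pass the test.

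Of 10 genes of the S-phase checkpoint 9 were lower and 1 did not pass, with a median of -0.68. Chek1, the checkpoint kinase that restrains origin firing, had the largest fall, from 18.4 to 7.30 FPKM (log2 change -1.23, limma adjusted p = 7.67e-05). Of 15 other S-phase genes under E2F control, among them genes of nucleotide synthesis, cyclins and Cdk2, 14 were lower and 1 did not pass, with a median of -0.95. Rrm1, the large subunit of ribonucleotide reductase, led them, from 129 to 46.3 FPKM (log2 change -1.47, limma adjusted p = 4.4e-05). The polymerases of repair and lesion bypass were mixed, with 7 of 12 tested genes lower, 1 higher and 4 that did not pass, and a median of -0.21. Polq, the polymerase of end joining, fell from 9.57 to 4.16 FPKM (log2 change -1.05, limma adjusted p = 0.000161). Rev1, a lesion bypass polymerase, rose from 13.5 ± 0.631 to 18.1 ± 1.12 FPKM (SD, n = 3 each; log2 change 0.40, limma adjusted p = 0.00146). NULL B was the lowest NULL library for 29 of the 34 further factors, 7 of the 10 checkpoint genes, all 15 E2F-controlled genes and 8 of the 14 repair polymerases. Rescaled to the common total of all genes, 11 of 34, 3 of 10, 8 of 15 and 1 of 12 genes of these lists were called lower, against 10.1% of all tested genes.

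**Figure D5:**
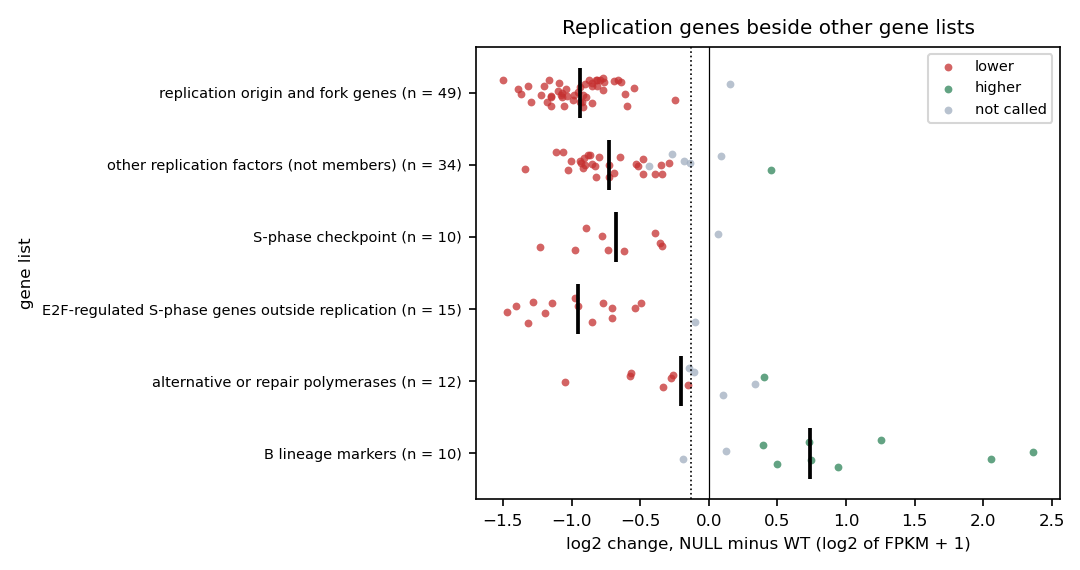
Log2 change of FPKM + 1 in NULL against WT for the replication genes, the 4 other lists and the 10 B-lineage markers used, 1 point per tested gene coloured by its limma call, with a bar at each list's median and a dotted line at the median of all tested genes (-0.13). The medians of the replication and S-phase lists run from -0.95 (the list of other E2F-controlled S-phase genes) to -0.21 (repair polymerases), and that of the B-lineage markers is 0.74.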

How the data were processed

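Polyadenylated RNA of 6 bone marrow samples was sequenced from stranded libraries, per the labels' protocols. The deposited values are FPKM per gene symbol, with Bowtie, Cufflinks, mm10 and GRCm38 named in the submitters' processing notes. The sources used here do not give the gene annotation or the strand setting. The series table held 23848 rows, and 489 rows with a repeated symbol were left out. Symbols averaging 1 FPKM or more were fitted on the log2(FPKM + 1) scale with limma 3.58.1 (R 4.3.3), a trended prior variance and no covariates, and p-values are two-sided. The limma step was also run on simulated data with independent genes, few of them changed. The data here differ in both respects, so that run lends no support to the calls. Positions come from GENCODE vM21 (GRCm38). Values per library are given for the most abundant member and the largest change in each role, and for members that did not pass the test. Of other lists, the largest fall and rise are named. Other genes named were chosen after their values were seen. The members and lists were chosen with earlier results of these data known. Of 18 alternatives, the common total without small RNA genes was added after seeing the data. The value of 1 gene is not reported here, and it was left out of its marker list.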

Additional observations from a re-analysis of the deposited data

How the results depend on the processing

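The number of replication genes called lower (48) was 29 after rescaling to a common total, against 10.1% of tested genes. The number called higher (0) was 1 after rescaling without small RNA genes, against 45.1% of tested genes. The number without overlap (48) was 30 under the common total, a setting for which the share of all tested genes is not given. The median log2 change of the set (-0.94) was -0.68 with quantile normalization, -0.78 with median-of-ratios rescaling, -0.66 with the common total and -0.56 with the common total without small RNA genes. Leaving out each library in turn gave 47 to 48 genes lower and 0 higher, against 37.9% to 41.1% and 20.4% to 24.0% of tested genes. Medians ran from -1.02 to -0.82, the last without NULL B. The groups did not overlap, in either direction, for 48 to 49 genes. Without WT C this count took in Pold1, with every NULL library above the remaining WT libraries. The share of all tested genes without overlap is not given for these settings. Over these refits the log2 change of Pold1 (0.16) ran from -0.0214 without NULL A to 0.30 without WT C. Other pseudocounts, filters, moderation and an adjusted p threshold of 0.01 left these summaries within their margins. The letters A, B and C were not taken as pairs, since deviations of same-letter libraries correlated by 0.0735, 0.355 and 0.133, although each library correlated best with its own letter. With a replicate block on the letter 47 genes were lower, against 38.3% of tested genes, the median was -0.94 and Orc4 lost its call (limma adjusted p = 0.0850). Gins2 and Pold1 have the largest standard errors of the set (0.199 and 0.178), and without absolute depth no counting interval can be given.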
